A study of Rattus norvegicus with 6 samples.

Results

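Prostaglandin synthesis and reception were followed through 10 genes in rat synovial fibroblast-like cells, which line the joint and grow attached in culture. They were Ptgs1, Ptgs2, Ptges, Ptgis, Pla2g4a, Ptger2, Ptger4, Ptgfr, Hpgd and Ptgds, chosen by symbol among the 16499 distinct symbols of the deposited table, with the most abundant row taken where a symbol had several. The cells came from the synovium of 2 female Wistar rats with collagen-induced arthritis, before therapy, and the cells of each rat were divided over 3 media. The medium held fetal bovine serum (FBS), blood serum of untreated rats (MS−), or blood serum drawn on day 18 from rats under mechanical stimulation by needle, which the labels call acupuncture (MS+). Each of the 6 libraries therefore stands for 1 rat in 1 serum, replicate 1 being rat 1 and replicate 2 being rat 2 in every group. The cells carried no engineered allele, and all of them, those of the FBS control included, were from arthritic animals. A field of the MS− labels calls the animals healthy while the title and the disease field call them arthritic, and the study describes the MS− serum in its text as taken ahead of therapy or from untreated arthritic rats, while its sampling summary lists serum of animals without arthritis. The number of animals behind the serum in each culture is not given in the sources used here, so the replicates measure the spread between 2 cell donors and not between serum donors. The methods of the study place the MS− draw ahead of therapy. By that account, stimulation and the day of the draw cannot be told apart in MS+ against MS−.

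As background, the pathway starts when cytosolic phospholipase A2 (Pla2g4a) frees arachidonic acid from membranes. The cyclooxygenases, the steady form Ptgs1 and the inducible form Ptgs2, turn it into prostaglandin H2, from which terminal synthases make the single prostanoids: Ptges makes prostaglandin E2, Ptgis prostacyclin and Ptgds prostaglandin D2. These act on G-protein coupled receptors, among them Ptger2 (EP2) and Ptger4 (EP4) for prostaglandin E2 and Ptgfr (FP) for prostaglandin F2α, and Hpgd starts their breakdown. Prostaglandin E2 is a known mediator of pain, swelling and tissue damage in the arthritic joint, where synovial fibroblasts are one of its sources, and the cyclooxygenases are the targets of the common anti-inflammatory painkillers.

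Of the 10 genes, 5 reached 1 CPM (read counts scaled to library size, with TMM factors) in both libraries of at least 1 group and were tested, namely Ptgs1, Ptgs2, Pla2g4a, Ptger4 and Ptgfr. All 5 were above that minimum in each of the 6 libraries, so none entered the test through 1 group alone. In MS+ against MS−, Ptgs1 and Ptgfr rose and Pla2g4a fell, while Ptgs2 and Ptger4 did not pass the test. Against FBS, Ptgfr rose and Pla2g4a fell in both rat sera, and Ptgs1 rose in MS+. The other 5 genes (Ptges, Ptgis, Ptger2, Hpgd and Ptgds) had at most 3 reads in any library, at or under the 3 reads taken as the floor of detection, and their differences were not tested.

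Pla2g4a, Ptgs1 and Ptgfr were the tested genes whose level differed by serum. Ptgs2 was read higher in rat 2 than in rat 1 in each serum, a difference that was not tested. The promoters of these 4 genes are shown because the genes carry the differences described below, and this is where their transcription starts. They run from 250 bases before to 50 bases after the annotated start, 5′ to 3′ on the strand of the gene, and are from RefSeq on assembly GRCr8. The table held such a window for 9 of the 10 genes, Ptgis not being among them. Capitals mark matches to 7 motifs searched on both strands, TATAAA, the E-box CACGTG, the cAMP response element TGACGTCA, the AP-1 motif TGANTCA, the C/EBP motif ATTGCNNAA, CCAAT and the GC box GGGCGG, where N is any base.
Pla2g4a, chr13:64572303-64572602, minus strand: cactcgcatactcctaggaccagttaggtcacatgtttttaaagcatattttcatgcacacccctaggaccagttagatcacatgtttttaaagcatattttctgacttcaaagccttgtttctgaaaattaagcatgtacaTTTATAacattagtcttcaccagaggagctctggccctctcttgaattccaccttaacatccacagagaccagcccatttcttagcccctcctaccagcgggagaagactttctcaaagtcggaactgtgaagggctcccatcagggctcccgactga
Ptgs1, chr3:39981169-39981468, plus strand: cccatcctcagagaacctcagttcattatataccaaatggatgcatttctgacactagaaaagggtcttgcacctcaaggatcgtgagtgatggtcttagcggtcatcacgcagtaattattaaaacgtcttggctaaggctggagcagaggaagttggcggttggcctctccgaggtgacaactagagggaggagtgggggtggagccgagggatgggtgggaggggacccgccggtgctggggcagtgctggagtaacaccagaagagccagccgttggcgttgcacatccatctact
Ptgs2, chr13:64713813-64714112, plus strand: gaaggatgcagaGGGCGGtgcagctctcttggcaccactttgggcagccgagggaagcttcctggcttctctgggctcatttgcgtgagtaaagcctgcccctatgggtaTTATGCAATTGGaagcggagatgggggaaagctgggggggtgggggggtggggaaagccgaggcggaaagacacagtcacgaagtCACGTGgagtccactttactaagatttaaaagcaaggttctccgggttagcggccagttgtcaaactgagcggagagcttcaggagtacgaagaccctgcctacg
Ptgfr, chr2:243425574-243425873, minus strand: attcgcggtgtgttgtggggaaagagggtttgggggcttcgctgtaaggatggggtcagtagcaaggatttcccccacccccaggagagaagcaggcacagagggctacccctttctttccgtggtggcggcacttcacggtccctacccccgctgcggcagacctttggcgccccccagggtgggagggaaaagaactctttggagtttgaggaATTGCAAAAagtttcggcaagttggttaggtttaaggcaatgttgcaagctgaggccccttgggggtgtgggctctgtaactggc

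With positions counted from the start site, the Ptgs2 window held an E-box match at -55, a C/EBP match at -140 that overlaps a CCAAT match at -133, and a GC box at -238. Of 33469 rat windows of this length, 6.42% held the E-box, 2.33% the C/EBP letters, 37.5% CCAAT and 33.1% the GC box. The Pla2g4a window held the TATA letters on the opposite strand at -108, found in 14.2% of windows, and the Ptgfr window held a C/EBP match at -35. No motif of the 7 was found in the Ptgs1 window, and neither the cAMP response element (1.83% of windows) nor AP-1 (7.33%) was found in any of the 9 windows. The motifs were chosen after these windows had been read, and a match is a run of letters, not a site shown to be bound.

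Pla2g4a, the enzyme that opens the pathway (chr13:64135730-64280815 of rn4, minus strand), was highest in FBS and lowest in MS+. Its level was 32.2 CPM (rat 1) and 39.0 CPM (rat 2) in FBS, 20.1 and 20.1 CPM in MS−, and 11.7 and 10.8 CPM in MS+. The 3 groups did not overlap, and the order FBS, MS−, MS+ held in the cells of both rats. In MS+ the level was 0.561 times that in MS−, a log2 change of -0.78 ± 0.15 (SE) with an adjusted p of 0.00441 in limma with the rat as a block. Without the block this p was 0.126, with DESeq2 it was 0.0865, and without MS− replicate 1 or 2 it was 0.163 or 0.103. Against FBS, Pla2g4a fell by 1.57 on the log2 scale in MS+ (adjusted p = 2.52e-06, and 0.00457 without the block) and by 0.79 in MS− (adjusted p = 0.00178, and 0.0348 without the block). The MS− change against FBS missed the threshold without MS− replicate 2 (adjusted p = 0.0716).

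Ptgs2, the inducible cyclooxygenase, is the neighbour of Pla2g4a in the table. It lies at chr13:64427288-64432978 on the plus strand, with 146.5 kb and no other row of the table between the 2 genes. Its level was 3.44 and 12.9 CPM in FBS, 3.11 and 10.7 CPM in MS−, and 3.96 and 4.96 CPM in MS+, which rests on 17 to 78 reads per library. The 3 groups overlapped. The cells of rat 2 held 3.76 times the level of rat 1 in FBS, 3.43 times in MS− and 1.25 times in MS+. The difference of MS+ from MS− was -0.35 on the log2 scale (95% confidence interval -0.97 to 0.27, adjusted p = 0.497), and that from FBS was -0.53 (-1.15 to 0.08, adjusted p = 0.189). These averages joined opposite values, since the MS+ against MS− difference was 0.27 for rat 1 but -0.97 for rat 2. MS− differed from FBS by -0.18 (-0.80 to 0.43, adjusted p = 0.716). Single libraries decided these values: without MS+ replicate 2 the MS+ against MS− difference was 0.31 (adjusted p = 0.607) and that from FBS was 0.13 (adjusted p = 0.798). Without MS+ replicate 1 they were -1.01 (adjusted p = 0.0154) and -1.19 (adjusted p = 0.00176), and without FBS replicate 1 the latter was -0.92 (adjusted p = 0.0159). The MS− against FBS difference turned to 0.20 without FBS replicate 2 and to 0.09 without MS− replicate 1.

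Ptgs1, the steady cyclooxygenase (chr3:15343832-15365412, plus strand), was higher in MS+ than in either other medium. It stood at 79.1 and 63.3 CPM in FBS, at 62.6 and 77.4 CPM in MS−, and at 89.0 and 137.8 CPM in MS+. Both MS+ libraries lay above the other 4, and rat 2 had the higher MS+ level. The mean of 113 ± 34.5 CPM (SD, n = 2) in MS+ was 1.62 times that of 70.0 ± 10.5 CPM in MS−. The log2 change was 0.66 ± 0.15 (adjusted p = 0.0122, and 0.253 without the block). Against FBS, Ptgs1 rose by 0.64 in MS+ (adjusted p = 0.00566, and 0.122 without the block), with a change of 0.17 for rat 1 and 1.11 for rat 2. Neither call stood once MS+ replicate 2 was left out, at 0.35 against MS− (adjusted p = 0.103) and 0.32 against FBS (adjusted p = 0.0663). The same was so against MS− without MS− replicate 1 or 2 (adjusted p = 0.260 and 0.135), and against FBS without FBS replicate 2 (0.25, adjusted p = 0.161). Between MS− and FBS the difference was -0.02 (-0.35 to 0.30, adjusted p = 0.938), and the 2 rats went opposite ways (-0.33 and 0.28). It was 0.37 without FBS replicate 1 and 0.05 without MS− replicate 1, and without FBS replicate 2 it was -0.41 (adjusted p = 0.0121).

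**Figure D1:**
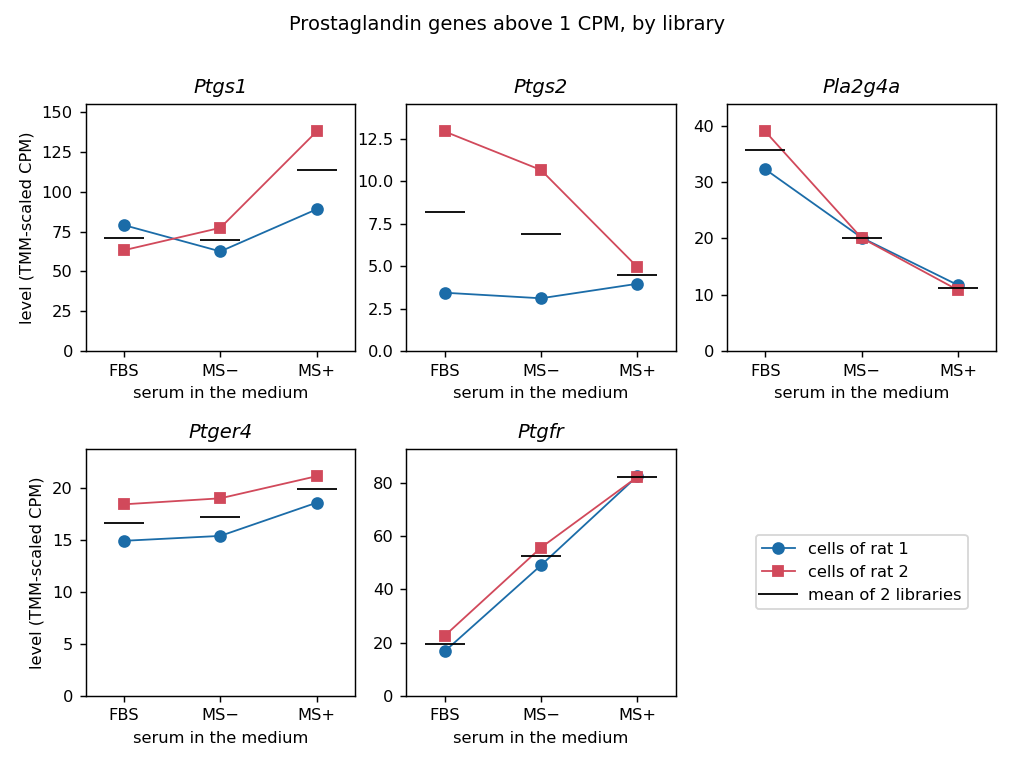
Level of the 5 tested genes in each library, in TMM-scaled CPM on axes that start at 0, against the serum in the medium. Points joined by a line are the cells of 1 rat and the short bar is the mean of 2 libraries; Pla2g4a falls from FBS over MS− to MS+ and Ptgfr climbs in that order in both rats, while Ptgs2 separates the rats in FBS (3.44 and 12.9 CPM) more than in MS+ (3.96 and 4.96 CPM).

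Ptgfr and Ptger4 were the tested receptors of the set, and Ptgfr, which senses prostaglandin F2α, changed more by serum than Ptger4. The table places it on sequence of chromosome 2 without a fixed position (chr2_random:3425807-3458646, plus strand). Its level was 16.7 and 22.5 CPM in FBS, 49.0 and 55.7 CPM in MS−, and 82.5 and 82.2 CPM in MS+. No 2 groups overlapped, and the order was the reverse of that of Pla2g4a. Against FBS, Ptgfr was 4.20 times higher in MS+ (log2 change 2.03 ± 0.12, adjusted p = 1.45e-08, and 0.00314 without the block) and 2.67 times higher in MS− (1.38 ± 0.12, adjusted p = 1.02e-06, and 0.00638 without the block). Both changes also passed without any 1 of the 6 libraries. From MS− to MS+ it rose by 0.65 (0.38 to 0.91, adjusted p = 0.00369, and 0.167 without the block), with 0.74 for rat 1 and 0.55 for rat 2. Leaving out MS− replicate 1 or 2, this p was 0.129 or 0.128.

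Ptger4, the EP4 receptor of prostaglandin E2 that raises cAMP (chr2:54423280-54433907, minus strand), showed little spread between sera. It was read at 14.9 and 18.4 CPM in FBS, 15.4 and 19.0 CPM in MS−, and 18.6 and 21.1 CPM in MS+. The highest library of each group was that of rat 2, and MS+ overlapped MS− but not FBS. MS+ differed from MS− by 0.20 on the log2 scale (-0.13 to 0.53, adjusted p = 0.454) and from FBS by 0.24 (-0.08 to 0.57, adjusted p = 0.259), and MS− differed from FBS by 0.04 (-0.28 to 0.37, adjusted p = 0.887). The upper bounds of these intervals are below a doubling, which is 1 on this scale. Ptger2, the other receptor that couples prostaglandin E2 to cAMP, had 0 reads in all 6 libraries. The table carries 2 rows for it on chromosome 15, both at 0. Whether reads that fit both rows were left out in the counting was not tested, so the 0 does not show that the transcript was missing.

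The terminal enzymes and the breakdown enzyme of the set were at the floor. Ptges, the inducible prostaglandin E2 synthase, had 3 reads in FBS replicate 1, 1 read in MS+ replicate 2 and 0 in the other libraries. Ptgis had 1 read in FBS replicate 1 and Ptgds 1 read in MS+ replicate 1, with 0 elsewhere. Hpgd, the dehydrogenase that inactivates prostaglandins, had 2 reads in FBS replicate 1, 3 in MS+ replicate 1 and 1 in MS+ replicate 2. At 3 reads per library the floor is 0.491 to 0.551 CPM, so lower levels could not be detected at this depth, and no fold is given.

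**Figure D2:**
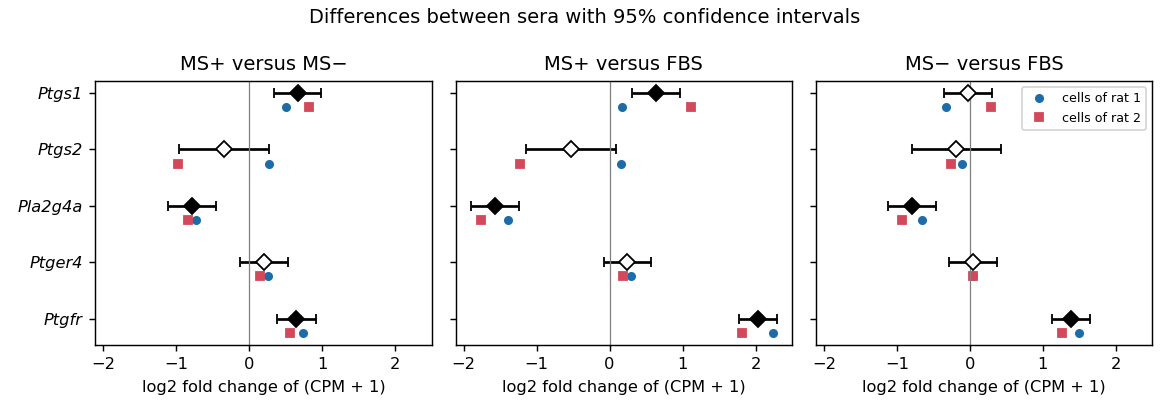
Log2 fold change of (CPM + 1) between sera for the 5 tested genes, one panel per comparison, from limma with the rat as a block. Diamonds are the estimates with 95% confidence intervals, filled where the adjusted p is under 0.05, and the small circles and squares under them are the changes in rat 1 and in rat 2; Ptgfr and Pla2g4a lie on opposite sides of 0 in all 3 panels, and the rats lie on opposite sides of 0 for Ptgs2 in both MS+ panels.

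By count, 3 of the 5 tested genes passed an adjusted p of 0.05 in MS+ against MS−, where 10.1% of the 9820 tested features did, 5.27% higher and 4.78% lower. In MS+ against FBS, 3 of 5 passed beside 28.2% of all features (14.4% higher and 13.9% lower), and in MS− against FBS 2 of 5 beside 20.5% (10.8% higher and 9.63% lower). The median absolute log2 change of the 5 genes was 0.65, 0.64 and 0.18 in these comparisons, beside 0.17, 0.24 and 0.21 over all features. Without the block, 0 of 5 passed in MS+ against MS− (background 0.0204%), 2 in MS+ against FBS (9.61%) and 2 in MS− against FBS (4.81%). At an unadjusted p under 0.05 in limma without the block, 3 of the 5 passed in MS+ against MS−, beside 14.7% of features, and edgeR, limma-voom and DESeq2 with the block called 3, 3 and 2 of them at the adjusted threshold. The thresholds of the study were also applied to the limma fit with the block, whereas the study itself used limma-voom with no block named. They were an unadjusted p under 0.05, a change of at least 2-fold and a mean of at least 1 CPM. None of the 5 genes then passed in MS+ against MS− (1.38% of features). Pla2g4a and Ptgfr passed in MS+ against FBS (5.6%) and Ptgfr in MS− against FBS (3.88%). Groups did not overlap for 3 genes in MS+ against MS−, as for 45.8% of features, for 4 in MS+ against FBS (56.7%) and for 2 in MS− against FBS (51.6%). The comparisons share libraries, so their counts are not independent of each other. The 10 genes were chosen with earlier results of these data known, so the counts beside the background are a description.

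The result for MS+ against MS− rests on both MS− libraries. With either MS− replicate 1 or MS− replicate 2 left out, 0 of the 5 genes were called, while the features called over the whole table fell from 987 to 97 or 150. Without MS+ replicate 1 there were 4 called and without MS+ replicate 2 there were 2, Pla2g4a and Ptgfr. The estimates for Pla2g4a and Ptgfr stayed on their side of 0 in each case.

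**Figure D3:**
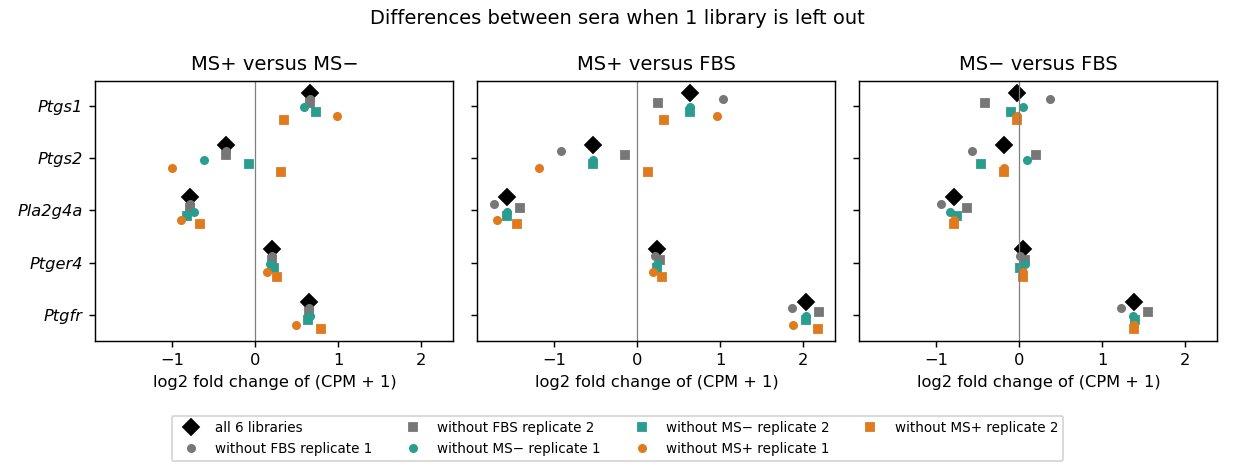
Log2 fold change of (CPM + 1) for the 5 tested genes with all 6 libraries (black diamonds) and without each library in turn (smaller markers, coloured by the group of the library left out, circles for replicate 1 and squares for replicate 2). Pla2g4a, Ptgfr and Ptger4 stay on 1 side of 0 in every panel, while Ptgs2 without MS+ replicate 2 moves to 0.31 in MS+ against MS− and 0.13 in MS+ against FBS.

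The rest of the pathway was read from lists of 97 genes, of which 92 were in the table and 63 were tested. These lists were also chosen with earlier results of these data known, so their shares, here and below, are a description. In MS+ against MS−, 4 of these rose and 9 fell, so that 20.6% were called beside 10.1% of all tested features. In MS+ against FBS 15 rose and 13 fell (44.4% beside 28.2%), and in MS− against FBS 14 rose and 6 fell (31.7% beside 20.5%). The 15 that rose include Pla2g5 and Alox5ap, which passed the filter through rat serum alone and were under the floor in FBS, and without them 13 rose. Without the block limma called 0, 8 and 3 of the 63 in these comparisons. The shares of 12.7% in MS+ against FBS and 4.76% in MS− against FBS then lay near the 9.61% and 4.81% of all features. In MS+ against MS−, 23.8% (15 of the 63) had an unadjusted p under 0.05 without the block, beside 14.7% of all features. Leaving out MS− replicate 1 or MS− replicate 2 kept 2 or 4 of the 13 calls in MS+ against MS−, and leaving out MS+ replicate 1 or MS+ replicate 2 kept 12 or 8. Of the 28 calls in MS+ against FBS 19 to 25 were kept when any 1 library was left out. Of the 20 in MS− against FBS, 7 or 8 were kept when MS− replicate 1 or MS− replicate 2 was left out, and 11 or 15 when FBS replicate 1 or FBS replicate 2 was.

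Of the 7 other receptor genes, 5 were tested. Ptger3, the EP3 receptor that lowers cAMP, was highest in MS−, at 16.6 and 8.68 CPM, beside 6.71 and 5.64 CPM in FBS and 4.32 and 3.49 CPM in MS+. It fell by 1.42 on the log2 scale from MS− to MS+ (adjusted p = 0.00112, and 0.142 without the block), the only receptor of this list called in that comparison. It rose by 0.87 from FBS to MS− (adjusted p = 0.0124, and 0.171 without the block). Both calls were lost without MS− replicate 1 (-1.10 with an adjusted p of 0.120, and 0.55 with 0.355), the second also without FBS replicate 1 (0.70, adjusted p = 0.108). Ptgir, the prostacyclin receptor, rose by 0.80 from FBS (12.1 and 12.4 CPM) to MS− (21.2 and 23.1 CPM), with an adjusted p of 0.00332, of 0.0494 without the block and of 0.151 without MS− replicate 2. In MS+ it stood at 17.7 and 13.6 CPM. Ptgfrn, a membrane protein that binds the FP receptor and dampens it, rose by 0.65 in MS− (adjusted p = 3.36e-05, and 0.188 without the block) and by 0.51 in MS+ (adjusted p = 0.000226, and 0.222 without the block) against FBS. Its level was 636 and 932 CPM in FBS, 1030 and 1417 CPM in MS−, and 954 and 1269 CPM in MS+, so that the rats differed within each serum. Ptger1 (EP1), named after its values were seen, rose by 0.36 from FBS to MS− (adjusted p = 0.0459, and 0.166 without the block). The row under the symbol Ptgdr, a prostaglandin D2 receptor, had 0 reads in all libraries. RefSeq names the transcript of that row Ptgdrl1, so this 0 cannot be assigned to Ptgdr. The thromboxane receptor Tbxa2r, also named after its values were seen, was at 9.70 to 15.6 CPM over the 6 libraries and passed in no comparison.

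**Figure D4:**
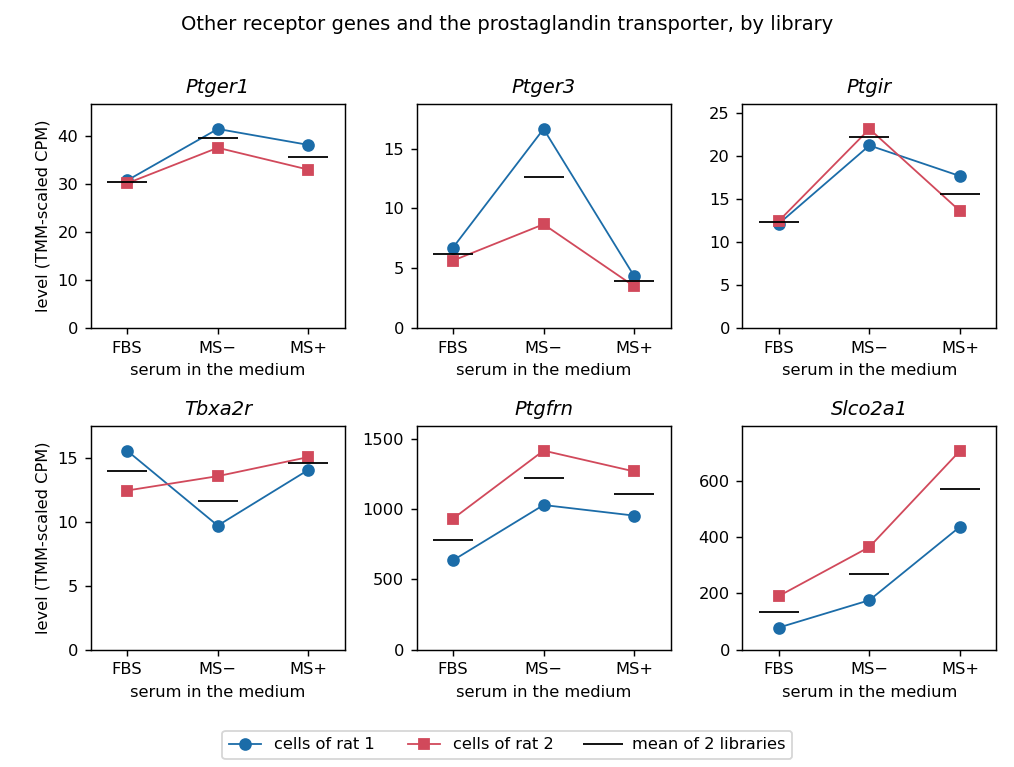
Level of 5 other receptor or receptor-associated genes and of the transporter Slco2a1 in each library, in TMM-scaled CPM on axes that start at 0, drawn as circles for the cells of rat 1 and squares for those of rat 2, with a bar at the mean of 2 libraries. Ptger3 and Ptgir peak in MS−, and Slco2a1 climbs from FBS to MS+ in both rats, with rat 2 above rat 1 throughout.

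Slco2a1, the carrier that takes prostaglandins up for breakdown, had the largest change among the 6 tested genes of transport and breakdown. Its level was 78.6 and 190 CPM in FBS, 176 and 364 CPM in MS−, and 437 and 706 CPM in MS+. Rat 2 was above rat 1 in each serum, and within each rat the order was FBS, MS−, MS+. It rose by 1.13 from MS− to MS+ (adjusted p = 2.11e-05, and 0.349 without the block), by 2.17 from FBS to MS+ (adjusted p = 1.35e-09, and 0.0399 without the block) and by 1.04 from FBS to MS− (adjusted p = 4.81e-06, and 0.281 without the block). Slco3a1, a related carrier, rose by 0.53 from MS− to MS+ (adjusted p = 0.00947, and 0.142 without the block). That call was lost without MS− replicate 1 (adjusted p = 0.157) or MS− replicate 2 (0.239). Ptgr2, a prostaglandin reductase, rose from FBS by 0.39 in MS+ (adjusted p = 0.0138) and by 0.34 in MS− (adjusted p = 0.0364), both lost without the block (0.0758 and 0.144). The first was lost without FBS replicate 2 (0.0765) or MS+ replicate 1 (0.0585), the second without any 1 of the FBS or MS− libraries (0.0711 to 0.440). Ptgr1, another reductase, fell by 0.98 in MS− against FBS (adjusted p = 0.0220, and 0.531 without the block), a value set by FBS replicate 1 at 58.8 CPM beside 9.28 CPM in FBS replicate 2. Without that library the difference was -0.18 (adjusted p = 0.739). Leaving out MS− replicate 1 or 2 gave -0.65 (adjusted p = 0.380) or -1.31 (adjusted p = 0.0523).

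Of the 9 other synthase genes, 6 were tested, and each call among them was a fall. In MS+ against MS− 1 fell (16.7% beside 10.1% of all features). In MS+ against FBS 3 fell (50% beside 28.2%), and in MS− against FBS 1 fell (16.7% beside 20.5%). Without the block 0, 1 and 0 were called. Ptges2, a prostaglandin E synthase of the membrane-associated kind, was read at 19.8 and 15.1 CPM in FBS, 14.5 and 13.4 CPM in MS−, and 7.39 and 6.61 CPM in MS+. It fell by 0.90 from MS− to MS+ (adjusted p = 0.00457, and 0.138 without the block) and by 1.20 from FBS to MS+ (adjusted p = 0.000132, and 0.0147 without the block). The first call was lost without MS− replicate 1 (0.102) or 2 (0.156). Akr1b1, an aldose reductase that can form prostaglandin F2α, fell against FBS by 0.42 in MS+ (adjusted p = 0.00386, and 0.0855 without the block) and by 0.37 in MS− (adjusted p = 0.0111, and 0.156 without the block). Without FBS replicate 1 these p were 0.0559 and 0.152, and without MS− replicate 1 or 2 the second was 0.198 or 0.159. Cbr3, a carbonyl reductase, fell by 0.67 in MS+ against FBS (adjusted p = 0.0205, and 0.0831 without the block), but not without FBS replicate 1 (0.0632) or MS+ replicate 1 (0.223). Hpgds, a prostaglandin D2 synthase, had 0 reads in all libraries. Ptges3, another prostaglandin E synthase, was named after its values were seen. It was at 129 to 150 CPM over the 6 libraries and passed in no comparison.

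Arachidonate release beyond Pla2g4a was covered by 13 tested genes. Mgll, a lipase that yields arachidonate from the lipid 2-arachidonoylglycerol, was read at 7.20 and 5.31 CPM in FBS, 6.59 and 3.62 CPM in MS−, and 1.62 and 1.28 CPM in MS+. It fell by 1.27 from MS− (adjusted p = 0.00408, and 0.161 without the block) and by 1.56 from FBS (adjusted p = 0.000231, and 0.0272 without the block), the first call being lost without MS− replicate 1 (adjusted p = 0.181). Mboat7, which returns arachidonate to membrane lipids, rose by 0.52 from MS− to MS+ (adjusted p = 0.00226, and 0.156 without the block), and the p was 0.0800 or 0.139 without MS− replicate 1 or 2. Anxa1, known as an inhibitor of phospholipase A2 action, fell by 0.30 in the same comparison (adjusted p = 0.0331, and 0.283 without the block), and this call was lost when MS− replicate 1 (0.363), MS− replicate 2 (0.402) or MS+ replicate 2 (0.277) was left out. Pla2g15, a lysosomal phospholipase, fell by 0.62 in MS+ against FBS (adjusted p = 0.00249, and 0.0577 without the block). Pla2g5, a secreted phospholipase, had 1.26 and 1.47 CPM in MS+ and 0.327 and 0 CPM in FBS. The latter is under the floor, so that no fold is given. It passed the filter through MS+ alone. Leaving it out, 3 genes of this list rose and 4 fell in MS+ against FBS (28.2% of all features were called there).

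The genes that report which cells were present moved with the sera in more than one direction. The summed level of 11 fibroblast markers was 81171 to 88027 CPM in FBS, 62830 to 65438 CPM in MS− and 71279 to 73960 CPM in MS+, and 9 of the 11 were tested. The sum is carried by collagens: Col1a1 had a mean of 37377 CPM in FBS, 23594 CPM in MS− and 27121 CPM in MS+, whereas Vim had 11733, 13442 and 15266 CPM in the same order and Pdgfra 152, 150 and 192 CPM. Dcn and Lum, which fibroblasts usually express strongly, were near the floor. Of 10 macrophage markers 6 had no read in any library (Ptprc, Cd163, Itgam, Aif1, Adgre1 and Lyz2), and their sum was 13.8 to 20.5 CPM, most of it Cd14. Summed platelet, endothelial, lymphocyte and mast cell markers reached at most 0.184, 1.47, 0.491 and 0.367 CPM. These sums cover 4 of 6 listed platelet, 4 of 6 endothelial, 5 of 6 lymphocyte and all 6 mast cell markers. Itga2b, Itgb3, Kdr, Vwf and Cd79a were not in the table and could not be read. Whether the fibroblast marker level has a part in the differences above was not tested, and in bulk RNA fewer cells of a type and less RNA per cell cannot be told apart.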

How the data were processed

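Poly(A)-selected RNA of cells from 2 rats in 3 sera was sequenced (6 libraries, 5463316 to 5991889 reads). Per the labels, reads were aligned to rn4 with Bowtie2 2.1.0 and counted with HTSeq 0.5.4p3. The authors deposited a normalized signal per transcript, in CPM with TMM-scaled library sizes. Strand use is not given in the sources used here. Whole reads were recovered from all values (100% whole within 1e-06 reads). Of 17221 rows, 9820 with at least 1 CPM in both replicates of a group were tested with limma 3.58.1 (R 4.3.3; lmFit, eBayes with trend, two-sided) on log2(CPM + 1), which understates changes of low genes, with serum and rat as terms and Benjamini-Hochberg adjustment over all 9820. Values are mean ± SD, changes log2 ± SE.

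The rat was a block because by the labels both rats gave cells to each group; the rat 2 minus rat 1 differences correlated across features by 0.49 to 0.62 between groups. The study used limma-voom with no block named and thresholds of p under 0.05 and 2-fold. Replicates were not copies (chi-square per degree of freedom 14.3 to 15.9). Alternatives were the fit without the block, other pseudocounts, filters and scalings, edgeR 4.0.16, DESeq2 1.42.0, limma-voom, and leaving out each library. The design foresaw CPM, and as TMM scaling moves the column sums the unit was recorded as a signal. Fits were tested on simulated data with the same rat effect in all 3 sera. That setting could not test the block where the rats differ by serum. Floors of 3 reads cover counting error only. Coordinates are rn4 as deposited, counted from 1; promoters and names are RefSeq, GRCr8.

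The 10 genes and all lists were chosen with earlier results of these data known. Named from each pathway list were at most 3 genes per comparison with the largest change past the adjusted threshold, receptors and synthases at 0, and 3 features most like Ptgs2. Gnas, Alox5, Ptger1, Tbxa2r and Ptges3 were named after their values were seen. Levels were not compared between genes, since transcript lengths were not used.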

Additional observations from a re-analysis of the deposited data

Results flagged for a closer look

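The cells of the 2 rats moved in opposite directions in 3 of the 15 differences examined, and none of these contrasts between rats was tested, since each rat gave 1 library per serum. For Ptgs2 in MS+ against MS−, the change was 0.27 in rat 1 and -0.97 in rat 2, so rat 2 differed by -1.24 on the log2(CPM + 1) scale. For Ptgs2 in MS+ against FBS, it was 0.16 in rat 1 and -1.23 in rat 2, a difference of -1.39. For Ptgs1 in MS− against FBS, it was -0.33 in rat 1 and 0.28 in rat 2, a difference of 0.62. The Ptgs2 libraries of rat 1 held 17 to 22 reads, against 27 to 78 in rat 2.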

How the results depend on the processing

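Over 18 alternatives, the 15 differences of the tested genes kept direction and side of the threshold in 241 of 270 cases, lost a call in 19, gained one in 4 and turned direction in 6. The count called in MS+ against MS− went from 3 to 0 without the replicate block and to 0 with no filter beyond 1 read. That last setting tested more features and also raised the unadjusted limma p, at the same log2 changes. For Ptgs1 this p went from 0.000577 to 0.0147, for Pla2g4a from 0.000124 to 0.00138 and for Ptgfr from 9.09e-05 to 0.00137. The counts without single MS− or MS+ libraries are given above for this comparison. In MS+ against FBS leaving out each library gave 2 to 4, and in MS− against FBS 1 to 3, the 1 being without MS− replicate 2. The block changed 1 other call of the tested genes, Ptgs1 in MS+ against FBS (adjusted p = 0.122). Ptgs1 in that comparison also missed the threshold with no filter beyond 1 read (adjusted p = 0.0836). Leaving out a single library gave larger changes for Ptgs2, at -1.01 in MS+ against MS− and -1.19 in MS+ against FBS without MS+ replicate 1 and -0.57 in MS− against FBS without FBS replicate 1, and for Ptgs1 at -0.41 in MS− against FBS without FBS replicate 2. The direction turned for Ptgs2 without MS+ replicate 2 in MS+ against MS− (0.31) and in MS+ against FBS (0.13), for Ptgs2 in MS− against FBS without FBS replicate 2 (0.20) or MS− replicate 1 (0.09), and for Ptgs1 in MS− against FBS without FBS replicate 1 (0.37) or MS− replicate 1 (0.05); the cause was not tested beyond the removal of that library. The named genes of the pathway lists kept their call in 618 of 761 cases, lost it in 143 and never turned direction. They had been picked for the largest changes past the threshold in these data, so none could gain a call. DESeq2 with the block kept 4 of the 13, 13 of the 28 and 6 of the 20 pathway calls, and edgeR and limma-voom with the block each kept 13, 28 and 19. Other scalings moved the median of all features by at most 0.05 (log2). With 2 rats, differences of the size seen for Ptger4 and Ptgs2 have intervals that include 0, and genes under 3 reads could not be compared.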

Other observations

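Downstream of the receptors, 22 genes of the cAMP relay were tested, of which 1 rose and 2 fell from MS− to MS+, 5 rose and 3 fell from FBS to MS+, and 4 rose and 1 fell from FBS to MS−. These shares of 13.6%, 36.4% and 22.7% lie near the 10.1%, 28.2% and 20.5% called over all features, and without the block 0, 3 and 0 of the genes were called (13.6% and 22.7% of them had an unadjusted p under 0.05 where the count is 0). Adcy3, an adenylate cyclase, was at 45.2 and 43.3 CPM in FBS, 45.2 and 37.2 CPM in MS−, and 20.2 and 15.8 CPM in MS+, and fell by 1.16 from MS− (adjusted p = 6.37e-05, and 0.0917 without the block) and by 1.26 from FBS (adjusted p = 3.71e-06, and 0.00840 without the block). Adcy5, another cyclase, was highest in MS− within each rat, at 56.0 and 101 CPM, beside 14.4 and 34.5 CPM in FBS and 38.2 and 65.0 CPM in MS+, and rose by 1.70 from FBS to MS− (adjusted p = 1.71e-07, and 0.0932 without the block). It fell by 0.58 from MS− to MS+ (adjusted p = 0.00886, and 0.617 without the block), a call lost when MS− replicate 1 (0.260), MS− replicate 2 (0.136) or MS+ replicate 2 (0.0521) was left out, and rose by 1.12 from FBS to MS+ (adjusted p = 1.02e-05, and 0.169 without the block). Prkar2b, a regulatory subunit of protein kinase A, rose by 0.49 from MS− to MS+ (adjusted p = 0.0230, and 0.224 without the block) and fell by 0.48 from FBS to MS− (adjusted p = 0.0133, and 0.128 without the block), and leaving out either MS− library ended both calls (0.0684 to 0.413), as did MS+ replicate 2 the first (0.0507) and FBS replicate 2 the second (0.127). Prkar1b, another such subunit, rose from FBS by 0.98 in MS+ (adjusted p = 0.00455, and 0.301 without the block) and by 0.75 in MS− (adjusted p = 0.0304, and 0.498 without the block). Leaving out FBS replicate 1 ended both (0.0729 and 0.389), and MS− replicate 1 the second (0.497). Gnas, the stimulatory G-protein subunit used by most cells, was listed at 0 in all libraries, so a 0 in this table does not show that a transcript was missing from the cells.

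Of 13 genes around the induction of Ptgs2, 8 were tested. Of these, 2 fell from MS− to MS+, 2 rose and 1 fell from FBS to MS+, and 4 rose and 2 fell from FBS to MS−. These shares of 25%, 37.5% and 75% stood beside 10.1%, 28.2% and 20.5% of all features. Without the block 0, 2 and 2 were called, the latter counts being 25% of the list beside 9.61% and 4.81% of all features. Il1rap, a coreceptor for interleukin 1, was at 4.26 and 6.13 CPM in FBS, 11.0 and 13.4 CPM in MS−, and 7.57 and 5.69 CPM in MS+. It rose by 1.10 from FBS to MS− (adjusted p = 0.00271, 0.0530 without the block and 0.0983 without MS− replicate 2) and fell by 0.79 from MS− to MS+ (adjusted p = 0.0365, and 0.226 without the block), a call lost when MS− replicate 1 (0.239), MS− replicate 2 (0.391) or MS+ replicate 2 (0.365) was left out. Cebpb, a transcription factor that binds C/EBP motifs, rose from 58.6 and 49.4 CPM in FBS to 102 and 92.7 CPM in MS− and 121 and 122 CPM in MS+, by 0.84 (adjusted p = 1.60e-05, and 0.0124 without the block) and 1.16 (adjusted p = 5.37e-07, and 0.00515 without the block). Zfp36, which shortens the life of inflammatory mRNAs, rose from 231 and 235 CPM in FBS to 421 and 494 CPM in MS− (by 0.97, adjusted p = 1.29e-06, and 0.00544 without the block) and stood at 361 and 339 CPM in MS+. That was 0.58 above FBS (adjusted p = 0.000153, and 0.0222 without the block) and 0.38 below MS− on the log2 scale (adjusted p = 0.0116, and 0.196 without the block), the latter call being lost without MS− replicate 1 (0.0878), MS− replicate 2 (0.434) or MS+ replicate 2 (0.0947). Il6, an inflammatory cytokine, was at 14.2 and 9.95 CPM in FBS, 7.13 and 6.15 CPM in MS−, and 6.31 and 2.39 CPM in MS+. It fell by 1.38 from FBS to MS+ (adjusted p = 0.000471, and 0.0682 without the block), and both MS− libraries also lay below FBS. The leukotriene branch had 3 tested genes of 12. Lta4h, which forms leukotriene B4, fell by 0.47 from FBS to MS+ (adjusted p = 0.00424, and 0.0586 without the block) and by 0.37 from MS− to MS+ (adjusted p = 0.0401, and 0.239 without the block), the latter not without MS− replicate 1 (0.467), MS− replicate 2 (0.256) or MS+ replicate 1 (0.161). Ephx2, an epoxide hydrolase, fell from FBS by 0.90 in MS+ (adjusted p = 0.0118, and 0.0757 without the block) and by 0.74 in MS− (adjusted p = 0.0420, and 0.164 without the block). Leaving out FBS replicate 1 ended both (0.0839 and 0.261), MS+ replicate 2 the first (0.0857) and MS− replicate 1 the second (0.571). Alox5ap, the partner of Alox5, had 1.44 and 2.57 CPM in MS+ and 0 and 0.332 CPM in FBS, which is under the floor. Alox5, the first enzyme of the branch, had at most 0.183 CPM in any library.

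Over the 6 libraries, the features most like Ptgs2 on the log2 scale, among 7316 rows of at least 10 CPM on average, were Cpsf2 (Pearson r = 0.996), Ptprg (0.985) and Zkscan1 (0.984), all of them higher in rat 2 than in rat 1 in each serum. The libraries share 2 cell donors and 3 sera, and with 6 points among so many rows these values are a description.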
